A study of Homo sapiens with 12 samples.

Results

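The *UGT1A* locus on chromosome 2 encodes the UDP-glucuronosyltransferases of family 1A, and its 9 genes (*UGT1A1*, *UGT1A3*, *UGT1A4*, *UGT1A5*, *UGT1A6*, *UGT1A7*, *UGT1A8*, *UGT1A9* and *UGT1A10*) were taken by symbol from the 60580 genes counted in each library. The locus was chosen by the rise in the counts of *UGT1A6* after 5-FU, so that its 5-FU response is given here as a description, without a test. The counts come from HCT116 cells, an established human colorectal cancer cell line, in 4 states. Cells without the regions encoding miR-34a and miR-34b/c, deleted with CRISPR-Cas9 (*miR-34a/b/c-KO*, here *KO* cells), and *WT* controls were treated with DMSO as the control or with 4 µM of 5-FU, a pyrimidine analog that disturbs nucleotide synthesis, for 48 h. Both genotypes are single cell derived clones, the *WT* clones having received the Cas9 plasmid without a guide, and the sources used here do not say whether the replicates of a state are different clones, so that genotype and clone cannot be told apart. Each state was labelled with 3 replicates. Among the 12 libraries, the one labelled as replicate 1 of 5-FU-treated *WT* cells held the same counts as replicate 3 of *WT* cells treated with DMSO for all 60580 genes and was left out, leaving 11 libraries and 2 replicates of *WT* cells treated with 5-FU.

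UGT enzymes sit in the membrane of the endoplasmic reticulum and transfer glucuronic acid from UDP-glucuronate to small lipophilic molecules, which become soluble and leave the cell through transporters. They clear bilirubin, hormones, dietary phenols and many drugs, mainly in the liver and the gut. The *UGT1A* genes are an unusual family. Each has its own promoter and its own exon 1, which encodes the part of the enzyme that binds the substrate, and each exon 1 is spliced to the same set of downstream exons, which encode the part that binds UDP-glucuronate. Transcription of *UGT1A* genes is known to respond to the aryl hydrocarbon receptor, to NRF2, to nuclear receptors such as PXR and to the hepatocyte nuclear factors.

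In GRCh38, the build the authors used, the locus covers chr2:233617633-233773300 (155.668 kb, plus strand). The canonical transcript of each member in GENCODE v44 has 5 exons and 2361 to 2455 bases. Exons 2 to 5 are shared by all 9 members and make up 1479 of these bases. The exon 1 of *UGT1A6* (chr2:233692890-233693865, 976 bases) makes up 39.8% of its transcript. It matched the exon 1 of the other 8 members at 52.6 to 56.0% of positions, whereas those of *UGT1A7* to *UGT1A10* matched each other at 87.9 to 94.4% and those of *UGT1A3* to *UGT1A5* at 93.1 to 93.7%. *UGT1A1* matched the others at 51.7 to 60.6%. No window of 150 bases, the length of a read, in the exon 1 of any member occurred in the exon 1 of another (0%). A read that lies in exons 2 to 5 alone fits all 9 members, and the sources used here do not say how such reads were assigned.

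The junction between exon 1 and exon 2 shows where the members part. The last 30 bases of exon 1 are printed in lower case and the first 30 bases of the shared exon 2 in capitals, 5′ to 3′.
UGT1A6: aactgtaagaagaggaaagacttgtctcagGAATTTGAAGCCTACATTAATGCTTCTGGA
UGT1A1: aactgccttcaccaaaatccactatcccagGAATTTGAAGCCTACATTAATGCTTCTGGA
UGT1A3: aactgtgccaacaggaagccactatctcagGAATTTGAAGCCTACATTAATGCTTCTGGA
UGT1A4: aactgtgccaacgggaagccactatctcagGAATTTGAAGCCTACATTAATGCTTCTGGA
UGT1A5: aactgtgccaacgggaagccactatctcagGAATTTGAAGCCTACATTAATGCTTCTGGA
UGT1A7: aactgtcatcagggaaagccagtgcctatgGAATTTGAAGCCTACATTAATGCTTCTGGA
UGT1A8: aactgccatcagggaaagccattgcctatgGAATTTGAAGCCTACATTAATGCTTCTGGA
UGT1A9: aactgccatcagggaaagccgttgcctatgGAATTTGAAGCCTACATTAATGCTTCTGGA
UGT1A10: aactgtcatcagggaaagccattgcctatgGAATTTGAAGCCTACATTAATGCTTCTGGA

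**Figure D1:**
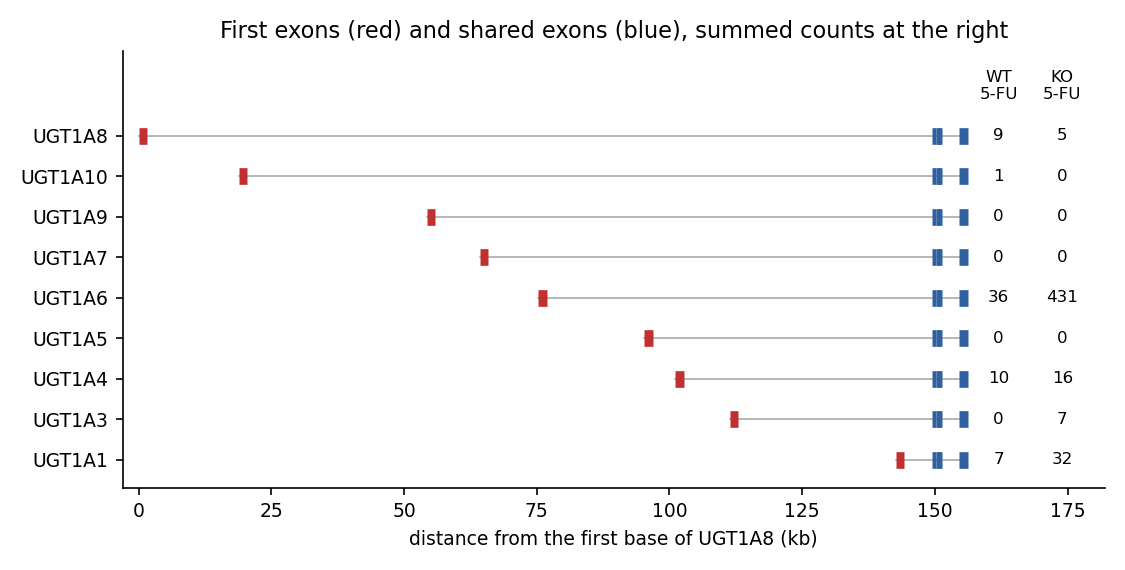
Map of the canonical transcripts of the 9 *UGT1A* genes, by distance in kb from the first base of *UGT1A8*, with the individual exon 1 in red and the shared exons in blue (exon blocks are widened so that they can be seen). The numbers at the right are the deposited counts summed over the 2 libraries of *WT* cells and the 3 libraries of *KO* cells treated with 5-FU, of which *UGT1A6* had 36 and 431.

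*UGT1A6*, which conjugates small planar phenols and serotonin, had 0 counts in each of the 6 libraries treated with DMSO. After 5-FU it had 23 and 13 counts in *WT* cells (replicates 2 and 3). In *KO* cells it had 170, 130 and 131 counts after 5-FU (replicates 1 to 3). The 5 libraries treated with 5-FU thus lay above all 6 treated with DMSO, and the 3 libraries of *KO* cells lay above both of *WT* cells. In counts per total library counts, scaled by the upper quartile (CPM), *UGT1A6* reached 0.596 and 0.446 in *WT* cells, a mean of 0.521 ± 0.106 (SD, n = 2). In *KO* cells it reached 6.74, 4.83 and 5.47, a mean of 5.68 ± 0.970 (SD, n = 3). Against 3 counts per library, the limit that a count of 0 allows (0.109 CPM on average in *WT* and 0.117 CPM in *KO* cells treated with DMSO), this was at least 4.77-fold higher in *WT* cells and at least 48.4-fold higher in *KO* cells. These limits cover counting error only. In bulk RNA, more cells with the transcript and more transcript per cell cannot be told apart.

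**Figure D2:**
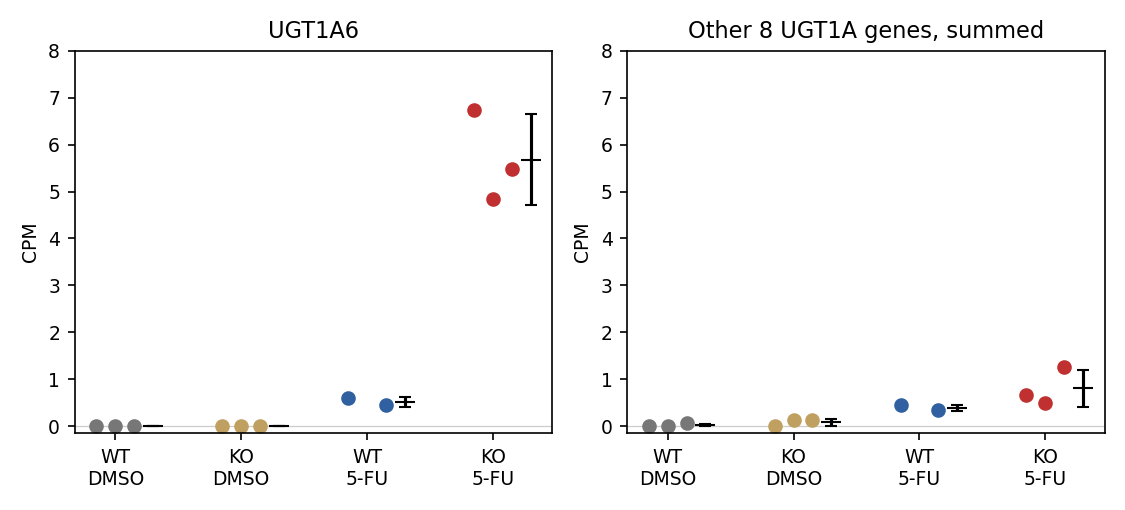
CPM of *UGT1A6* (left) and of the other 8 *UGT1A* genes summed (right) in each of the 11 libraries, with points for libraries and the mean with its SD beside them (lower bars end at 0). *UGT1A6* lies at 0 in the 6 libraries treated with DMSO, at 0.446 and 0.596 in *WT* cells and at 4.83 to 6.74 in *KO* cells treated with 5-FU.

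To put the pattern of *UGT1A6* beside that of other genes, 33536 of the 60580 genes had 0 counts in all 6 libraries treated with DMSO. Of all genes, 85 (0.14%) had 0 counts there and at least 1 count in each of the 5 libraries treated with 5-FU. Among these 85 genes, none had a higher mean count than *UGT1A6* in *KO* cells treated with 5-FU. This rank is a description only, since *UGT1A6* was chosen by the same rise after 5-FU.

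The comparison of the genotypes under 5-FU addresses whether the level of *UGT1A6* after the drug differs between cells with and without miR-34. The mean CPM of *UGT1A6* in *KO* cells was 10.9 times that in 5-FU-treated *WT* cells (fitted log2 fold change 3.42, SE 0.31). The lowest CPM of *KO* cells was 8.11 times the highest of *WT* cells. The libraries of this comparison are among those whose rise in *UGT1A6* led to the choice of the locus, so that this difference is also a description and no test is given. Under DMSO *UGT1A6* was at 0 in both genotypes, and no fold is given.

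The other 8 members conjugate other substrates. *UGT1A1* is the enzyme of bilirubin and of SN-38, the active form of irinotecan. It had 0 counts in *WT* cells and 0, 3 and 0 counts in *KO* cells treated with DMSO. After 5-FU it had 7 and 0 counts in *WT* cells and 5, 3 and 24 counts in *KO* cells. The groups overlapped, and the 24 counts of replicate 3 of *KO* cells were the value through which *UGT1A1* passed the filter of 20 counts. No difference between the genotypes is given here for *UGT1A1*, which under DMSO did not exceed 3 counts in any library.

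*UGT1A4*, known for N-glucuronides of amines, had 2 counts in replicate 3 of *WT* cells treated with DMSO and 0 in the other 5 libraries treated with DMSO. After 5-FU it had 10 and 0 counts in *WT* cells and 9, 5 and 2 in *KO* cells. *UGT1A3*, a close relative with a broad range of substrates, had counts in *KO* cells treated with 5-FU alone, with 3, 0 and 4. *UGT1A5*, for which little activity is known, had 0 counts in all 11 libraries. Among these 3 neighbours with similar exon 1 sequences, no library exceeded 10 counts.

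*UGT1A7*, *UGT1A8* and *UGT1A10* are the members known to be expressed outside the liver, with *UGT1A8* and *UGT1A10* found mainly in the gut, and *UGT1A9* is an enzyme of liver and kidney that acts on bulky phenols. *UGT1A8* had 0 and 9 counts in *WT* cells and 0, 5 and 0 counts in *KO* cells treated with 5-FU, and 0 under DMSO. *UGT1A10* had a single count, in replicate 3 of *WT* cells treated with 5-FU. *UGT1A7* had 4 counts in replicate 3 of *KO* cells treated with DMSO and 0 elsewhere, which makes it the member with counts under DMSO and none after 5-FU. *UGT1A9* had 0 counts in all 11 libraries. Thus 7 of the 9 members had at least 1 count in some library, and 2 of the 9, *UGT1A6* and *UGT1A1*, passed the filter. For the others a difference was not detectable at this depth.

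Per kb of the canonical transcript, the order of the levels in *KO* cells treated with 5-FU was *UGT1A6* (2.31 ± 0.395 CPM per kb, SD, n = 3), *UGT1A1* (0.185 ± 0.208), *UGT1A4* (0.0859 ± 0.0568), *UGT1A3* (0.0392 ± 0.0354) and *UGT1A8* (0.0257 ± 0.0445). The level of *UGT1A6* was above the others in each of the 3 libraries, while the neighbours below it in this order overlapped. In *WT* cells treated with 5-FU the order was *UGT1A6* (0.212 ± 0.0433 CPM per kb, n = 2), *UGT1A8* (0.0640 ± 0.0905), *UGT1A4* (0.0533 ± 0.0754), *UGT1A1* (0.0384 ± 0.0543) and *UGT1A10* (0.00711 ± 0.0101). Below *UGT1A6*, each of these had counts in 1 of the 2 libraries.

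Since exons 2 to 5 are shared, the counts of the 9 members were also summed. The sum was 0, 0 and 2 in *WT* cells and 0, 3 and 4 in *KO* cells treated with DMSO. After 5-FU it was 40 and 23 in *WT* cells (0.912 ± 0.176 CPM, SD, n = 2) and 187, 143 and 161 in *KO* cells (6.48 ± 1.07 CPM, n = 3). The sum, which does not depend on how reads of the shared exons were divided among the members, again separated treated from control libraries and the genotypes under 5-FU. Since most of it is *UGT1A6*, the sum is given without a test as well.

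*UGT1A6* made up 57.5% (95% CI 40.9 to 73.0%, Clopper-Pearson) and 56.5% (34.5 to 76.8%) of the summed counts in the libraries of *WT* cells treated with 5-FU. In *KO* cells it made up 90.9% (85.8 to 94.6%), 90.9% (85.0 to 95.1%) and 81.4% (74.5 to 87.1%). The mean shares were 57.0 ± 0.692% (SD, n = 2) and 87.7 ± 5.51% (n = 3). The shares of single libraries did not overlap between the genotypes. The interval reaching 76.8% in *WT* cells did overlap the one starting at 74.5% in *KO* cells. Because *UGT1A6* led to the choice of the locus, its share is a description as well. The other 8 members together had 10 to 17 counts per library in *WT* cells and 13 to 30 in *KO* cells, ranges that overlapped. Scaled to the library, they lay at 0.441 and 0.343 CPM in *WT* cells (0.392 ± 0.0692) and at 0.674, 0.483 and 1.25 CPM in *KO* cells (0.803 ± 0.401). Each library of *KO* cells was thus above both of *WT* cells in the counts assigned to these 8 members. The intervals cover counting error only. Unlike the sum, the shares and the counts of the other 8 members depend on how reads of the shared exons were assigned. The sources used here do not say how, so these counts may hold reads of *UGT1A6*.

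**Figure D3:**
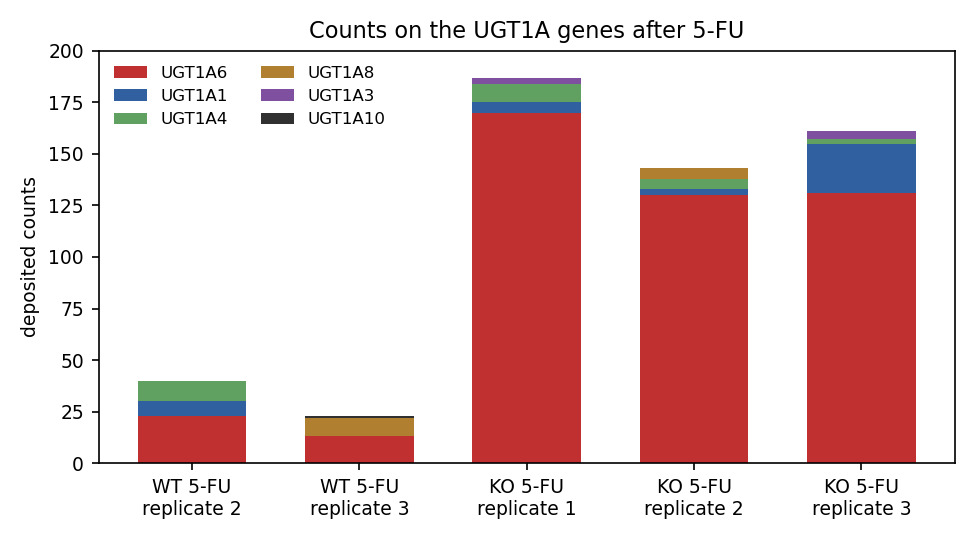
Deposited counts of the *UGT1A* genes, stacked by gene, in the 5 libraries treated with 5-FU. *UGT1A6* takes 13 and 23 counts in *WT* cells and 130 to 170 in *KO* cells, where the 24 counts of *UGT1A1* in replicate 3 are the largest contribution of another member.

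RefSeq promoter windows of GRCh38.p14 (250 bases before to 50 after the start of transcription) were matched for 8 of the 9 members, *UGT1A10* being the other. *UGT1A6* has a pair of starts and so a pair of windows, printed here because *UGT1A6* is the member that carries the rise. The upstream window is chr2:233691452-233691751 and the downstream window, in front of the canonical exon 1, is chr2:233692640-233692939, both on the plus strand. Capitals mark the matches to motifs of regulators known for this family.
UGT1A6, upstream start: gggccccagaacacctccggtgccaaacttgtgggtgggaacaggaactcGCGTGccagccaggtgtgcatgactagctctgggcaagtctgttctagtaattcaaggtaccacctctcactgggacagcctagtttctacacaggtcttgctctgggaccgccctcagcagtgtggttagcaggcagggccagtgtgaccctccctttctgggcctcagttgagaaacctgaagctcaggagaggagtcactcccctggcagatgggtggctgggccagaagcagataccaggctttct
UGT1A6, downstream start: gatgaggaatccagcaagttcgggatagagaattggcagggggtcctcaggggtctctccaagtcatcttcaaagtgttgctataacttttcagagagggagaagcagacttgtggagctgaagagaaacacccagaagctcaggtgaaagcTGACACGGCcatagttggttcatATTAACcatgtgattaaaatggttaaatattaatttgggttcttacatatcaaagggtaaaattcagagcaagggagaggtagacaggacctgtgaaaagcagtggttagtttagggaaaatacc

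In the upstream window, the core of the element bound by the aryl hydrocarbon receptor (GCGTG) lies 200 bases before the start. In the downstream window, the antioxidant response element (TGACNNNGC) lies 98 bases before the start and the HNF1 half-site (GTTAAT, here on the other strand) 75 bases before it. Both strands were searched, and the marked matches do not overlap. Over the 9 windows of the locus, GCGTG was found in 6, against 36.5% of 35116 windows of all genes. The sequence around the match is alike in *UGT1A7*, *UGT1A8* and *UGT1A9*, and alike in *UGT1A3* and *UGT1A4*, and the match of *UGT1A3* lies after the start. The windows of the locus are therefore not independent of each other, and the share was not tested. TGACNNNGC was found in 2 of 9 (13.3% of all windows) and GTTAAT in 4 of 9 (6.88%). The letters TATAAA of the TATA box were found in 1 of 9 (11.5%), that of *UGT1A1*. This match lies on the other strand, 92 bases before the start, and other forms of a TATA box were not searched. These are matches of letters, not sites of binding.

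Of the genes annotated within 500 kb of the locus, 19 were listed by symbol and 7 passed the filter, and these were compared between the genotypes with the quasi-likelihood test of edgeR. FDR < 0.05 together with an absolute fold change > 1.5 was required for a call. Of the 16123 genes tested, 14.1% were called under DMSO (9.1% higher and 4.97% lower in *KO* cells) and 18.1% under 5-FU (7.58% higher, 10.6% lower). Of the 7 neighbours, 6 were called higher in *KO* than in *WT* cells under DMSO and 7 under 5-FU. Their median log2 fold change was 0.84 under DMSO and 0.96 under 5-FU, beside 0.03 and -0.05 for all genes tested. *USP40*, a deubiquitinase gene and the tested gene nearest to the locus on its left side, was 18.7 ± 0.699 CPM in *WT* and 49.4 ± 1.80 CPM in *KO* cells treated with DMSO (log2 fold change 1.40, SE 0.07, FDR = 1.49e-10, edgeR). *HJURP*, which loads the centromeric histone CENP-A, 60.1 kb behind it, was higher by 0.57 on the log2 scale under DMSO, just under the fold required, and by 1.21 under 5-FU. *TRPM8*, a cold-sensing ion channel gene, was higher by 3.23 and 2.48. *ATG16L1*, an autophagy gene, was higher by 0.80 and 0.76, and *DGKD*, a diacylglycerol kinase gene, by 0.84 and 0.72. After 5-FU, *INPP5D*, the gene of the inositol phosphatase SHIP1, rose by 2.54 in *WT* and 2.33 in *KO* cells on the log2 scale. *UGT1A6* thus lay among genes that were higher in *KO* cells under both treatments, and its log2 fold change of 3.42 under 5-FU was above those of the 7 neighbours, which ranged from 0.72 to 2.48. Their part in the difference of *UGT1A6* was not tested.

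Other UGT genes were sparse in these cells. Of the 13 other UGT genes, 1 passed the filter, *UGT8*, which makes galactosylceramide and does not glucuronidate. *UGT8* fell after 5-FU from 38.3 ± 0.951 to 18.0 ± 2.50 CPM in *WT* cells (log2 fold change -1.09, FDR = 1.74e-08, edgeR) and from 31.7 ± 1.57 to 19.5 ± 0.512 CPM in *KO* cells (-0.70, FDR = 8.06e-07, edgeR). In these 5-FU responses 27.8% of all genes were called in *WT* cells (18.5% higher, 9.38% lower) and 25.2% in *KO* cells (13.3% higher, 12% lower). Among the 12 others, no library exceeded 8 counts.

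UDP-glucuronate is made by UGP2 and UGDH and carried into the endoplasmic reticulum by transporters such as SLC35D1. Of the 6 genes of its supply and of glucuronide hydrolysis, 1 was called higher and 1 lower after 5-FU in each genotype. *SLC35D1* rose by 0.85 in *WT* and 0.71 in *KO* cells on the log2 scale. *UGDH*, the enzyme that oxidizes UDP-glucose to UDP-glucuronate, fell from 119 ± 6.43 to 64.0 ± 6.28 CPM in *WT* cells (-0.90, FDR = 1.43e-08, edgeR) and from 151 ± 8.59 to 90.04 ± 2.475 CPM in *KO* cells (-0.74, FDR = 2.54e-08, edgeR). None of the 6 was called between the genotypes (0%), with log2 fold changes of -0.33 to 0.51 under DMSO and -0.36 to 0.49 under 5-FU.

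Of 7 transporters of glucuronides and bile acids, 6 passed the filter. *ABCG2*, an efflux pump of drugs and their conjugates, rose after 5-FU from 3.399 ± 0.216 to 5.22 ± 0.0858 CPM in *WT* cells and from 4.54 ± 0.650 to 11.35 ± 0.913 CPM in *KO* cells. Its log2 fold changes were 0.62 and 1.33, and the difference of both responses was 0.71 (SE 0.18, FDR = 0.0105, edgeR), in a comparison in which 10.1% of genes were called (3.42% higher, 6.66% lower). The response in *WT* cells was 0.57, under the fold required, when replicate 3 of DMSO-treated *WT* cells was left out. Under 5-FU *ABCG2* was higher in *KO* than in *WT* cells by 1.12 and *ABCC4* (MRP4) lower by 0.78 on the log2 scale. Under DMSO *ABCC3* (MRP3), which exports glucuronides across the basolateral membrane, was higher by 0.76 in *KO* cells, and *SLCO1B3*, an uptake carrier, by 0.98. *ABCC1* and *ABCC2* were not called in any comparison.

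Of the 15 regulators of *UGT1A* transcription listed, 13 passed the filter. *NR1I2*, which encodes PXR, a nuclear receptor that binds drugs and bile acids, had 0 counts in *WT* cells treated with DMSO and 53 to 67 counts after 5-FU (1.78 ± 0.0568 CPM, n = 2), at least 16.3-fold higher. In *KO* cells it had 2 to 5 counts under DMSO (0.154 ± 0.0654 CPM) and reached 1.5 ± 0.318 CPM after 5-FU (log2 fold change 3.25, FDR = 5.74e-06, edgeR). Like *UGT1A6*, *NR1I2* was at or near 0 before the drug. Between the genotypes under 5-FU, *NR1I2* was not called (-0.24, SE 0.31, FDR = 0.547, edgeR). For *UGT1A6* no test of this difference is given.

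*HNF4A*, a hepatocyte nuclear factor, was low throughout, with 1.80 ± 0.357 CPM in *WT* and 0.739 ± 0.209 CPM in *KO* cells treated with DMSO. Under 5-FU it was 2.35 ± 0.853 CPM in *WT* and 0.304 ± 0.110 CPM in *KO* cells (log2 fold change -2.95, FDR = 7.65e-06, edgeR), opposite to *UGT1A6*. *VDR*, the vitamin D receptor, rose by 1.35 after 5-FU in *KO* cells, where it reached 58.8 ± 1.56 CPM, and was 0.66 higher there than in *WT* cells on the log2 scale. *RXRA*, the partner of PXR and VDR, was higher in *KO* cells by 0.68 under DMSO and 0.73 under 5-FU, and *PPARG* was lower by 0.92 and 0.64. Over the list of 13, 3 genes were called higher and 2 lower in *KO* cells under 5-FU. Of all genes, 7.58% were called higher and 10.6% lower. The median of the list was 0.13 on the log2 scale, beside -0.05 for all genes. *AHR*, *ARNT*, *NFE2L2* (NRF2) and *KEAP1* were not called in any comparison, and *AHR* was 49.3 ± 4.45 CPM in *WT* and 64.15 ± 1.03 CPM in *KO* cells treated with 5-FU.

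*UGT1A6* is a textbook target of both the aryl hydrocarbon receptor and NRF2, and the other targets of these factors were compared next to it. Of 7 targets of the aryl hydrocarbon receptor, 6 were listed and 4 passed the filter. After 5-FU, none of the 4 was called higher and 1 lower in *WT* cells, and 1 was higher and 1 lower in *KO* cells. *CYP1A1*, its most inducible target, had 1.73 ± 0.3405 CPM in *WT* cells treated with DMSO and 2.28 ± 0.0313 CPM after 5-FU, and 2.79 ± 0.661 and 2.56 ± 0.361 CPM in *KO* cells, with no call for 5-FU. *CYP1B1* rose by 0.98 on the log2 scale in *KO* cells and had a log2 fold change of -0.08 in *WT* cells. *TIPARP* was not called in any comparison. Between the genotypes, 3 of the 4 were called under DMSO and none under 5-FU (0%), against 14.1% and 18.1% of all genes. Under DMSO *CYP1A1* was higher in *KO* cells by 0.70 and *NQO1* by 0.59, and *CYP1B1* was lower by 0.77 on the log2 scale. *CYP1A1* lost its call when replicate 3 of DMSO-treated *WT* cells or replicate 1 or 3 of DMSO-treated *KO* cells was left out (0.56 to 0.63).

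All 18 targets of NRF2 passed the filter. After 5-FU 4 were called higher and 1 lower in *WT* cells, and 3 higher and 3 lower in *KO* cells, with medians of 0.03 and -0.16 on the log2 scale beside 0.03 and -0.06 for all genes. *AKR1B10*, an aldo-keto reductase gene, rose from 0.301 ± 0.0802 to 8.80 ± 0.540 CPM in *WT* cells (log2 fold change 4.82, FDR = 2.14e-11, edgeR) and from 0.742 ± 0.318 to 20.7 ± 0.473 CPM in *KO* cells (4.74, FDR = 1.02e-12, edgeR). It was higher in *KO* than in *WT* cells treated with 5-FU by 1.23 on the log2 scale. *HMOX1*, which degrades heme, rose by 1.20 and 1.15. *NQO1*, a quinone reductase gene that is a target of both factors, fell by 0.73 in *WT* and 0.74 in *KO* cells. *SLC7A11*, the cystine carrier, fell by 1.22 in *KO* cells and had a log2 fold change of 0.22 in *WT* cells. Between the genotypes under 5-FU, *AKR1B10* was the 1 target of the 18 called higher in *KO* cells, and 4 were called lower. Of all genes, 7.58% were called higher and 10.6% lower. The median of the 18 was -0.29 on the log2 scale in that comparison, beside -0.05 for all genes. *GCLC*, *GCLM*, *TXNRD1* and *SRXN1* were not called in any comparison. The part of either factor in the rise of *UGT1A6* was not tested.

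Sulfotransferases conjugate many of the same phenols, and 6 of 10 passed the filter. None was called higher in any comparison (0%), beside 3.42 to 18.5% of all genes, shares at which 6 genes would hold few such calls. *SULT1C2* fell after 5-FU, with log2 fold changes of -0.94 in *WT* and -1.70 in *KO* cells. *SULT2B1*, which acts on cholesterol, fell by 1.53 in *KO* cells, from 2.05 ± 0.182 to 0.701 ± 0.250 CPM, and had 2.86 ± 0.562 CPM in *WT* cells treated with 5-FU (difference between the genotypes called, FDR = 2.92e-05, edgeR).

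**Figure D4:**
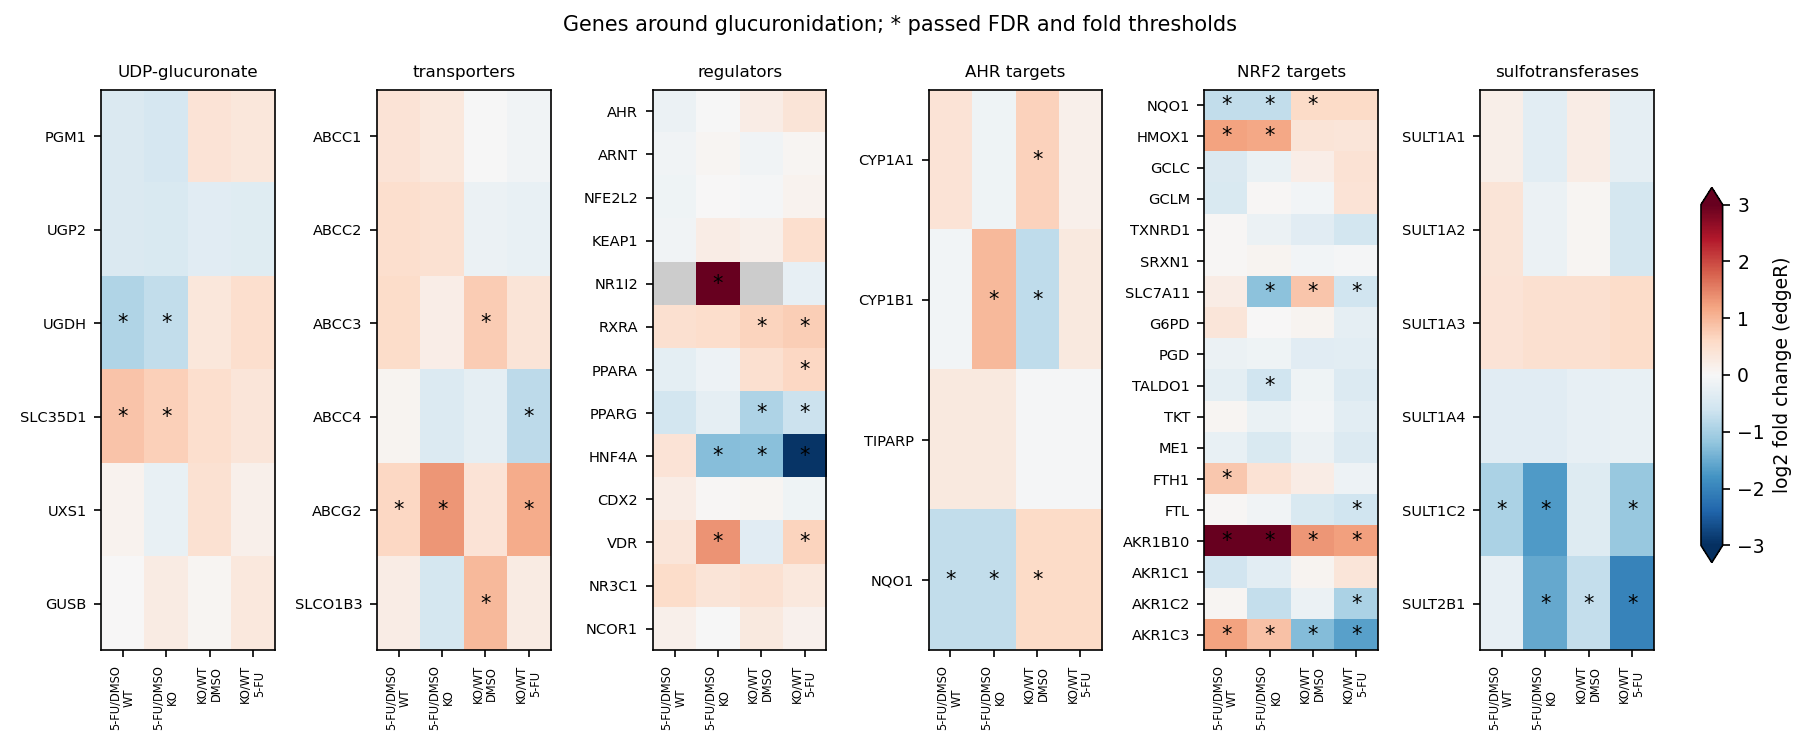
Log2 fold change (edgeR) of the genes around glucuronidation that passed the filter, for 5-FU against DMSO in each genotype and for *KO* against *WT* cells under each treatment. Stars mark differences with FDR < 0.05 and an absolute fold change > 1.5, colours are limited to 3 on either side and grey cells have no fold because a group held at most 3 counts per library. *AKR1B10* stands out with 4.82 and 4.74, and *HNF4A* with -2.95 under 5-FU.

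The 5 genes whose pattern over the 11 libraries was most like that of *UGT1A6*, by Pearson's r of log2 CPM among 16121 genes, were *E2F7* (r = 0.994), *TGFBRAP1* (0.992), *CCDC70* (0.992), *PARD6G* (0.992) and *HBEGF* (0.992). The libraries fall into 4 states, which these points share, so that r is a description, and 308 genes had r above 0.95. *E2F7*, a repressor of the E2F family, had 29.5 ± 1.60 and 32.4 ± 2.19 CPM in *WT* and *KO* cells treated with DMSO, and 57.3 ± 2.85 and 118.7 ± 3.63 CPM after 5-FU. *HBEGF*, a ligand of the EGF receptor, had 5.73 ± 0.482 and 6.99 ± 0.253 CPM under DMSO, and 17.5 ± 0.0340 and 39.5 ± 0.608 CPM after 5-FU. *CCDC70* was, like *UGT1A6*, at 0 in all libraries treated with DMSO, with 0.163 ± 0.0112 and 0.809 ± 0.314 CPM after 5-FU. All 5 had their highest mean in *KO* cells treated with 5-FU.

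Facts of the whole series bear on these values. Total counts ranged from 22831415 to 39064210, so that 1 library with 3 counts of a gene lay at 0.0777 to 0.132 CPM. *CDKN1A* and *MDM2*, genes of the DNA damage response, rose after 5-FU in both genotypes (by 3.64 and 2.99 in *WT*, 2.40 and 2.08 in *KO* cells, log2 scale). Under DMSO *CDKN1A* was at 167 CPM in *WT* and 469 CPM in *KO* cells, and after 5-FU at 2078 and 2481 CPM. *MDM2* was at 141 and 192 CPM under DMSO and at 1119 and 811 CPM after 5-FU. *MIR34AHG*, the host gene of miR-34a, was higher in *KO* cells, by 2.19 under DMSO and 1.99 under 5-FU, and since the deletion removes only the region of the mature miRNA, its counts do not check the labels. The epithelial markers summed to 5269 to 5669 CPM under DMSO. After 5-FU they summed to 11131 to 12185 CPM in *WT* and 8560 to 9036 CPM in *KO* cells. Most of this sum was *KRT8*, *KRT18* and *KRT19*, which rose after 5-FU, as did *CDH1*. *EPCAM* fell from 432 to 331 CPM in *WT* and from 420 to 301 CPM in *KO* cells. *CDX2* went from 20.4 to 23.7 CPM in *WT* and from 21.3 to 21.7 CPM in *KO* cells. *VIL1* was near 0 under DMSO (0.254 CPM in *WT* and 0.0361 CPM in *KO* cells) and reached 0.452 CPM in *WT* and 1.48 CPM in *KO* cells after 5-FU. Since the liver is a main site of UGT1A enzymes, 5 hepatocyte markers were examined. Their sum was 6.80 to 7.68 CPM in *WT* and 10.7 to 11.7 CPM in *KO* cells treated with DMSO, and 31.4 to 32.1 and 41.6 to 42.8 CPM after 5-FU, of which *SERPINA1* made up nearly all. *ALB*, *APOA1*, *APOB* and *TTR* had at most 8 counts in any library. The part of *SERPINA1* in the result was not tested.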

How the data were processed

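The authors used CLC Genomics Workbench to align paired-end reads of 150 bases to GRCh38, and deposited counts per gene symbol, without normalization. Samples were grouped by their labels. Genes that reached 20 counts in any library were kept, scaled with upper-quartile factors and fitted with edgeR 4.0.16 (glmQLFit and glmQLFTest, two-sided, R 4.3.3) in 1 model with a mean per state, with Benjamini-Hochberg adjustment over 16123 genes. RUVg of the study was not used, since its control genes are not named in the sources used here. CPM were computed from the deposited counts, and a prior count of 2 entered log2 CPM. The members and lists were chosen with earlier results of these data known. Named were all members, up to 4 called genes per list and comparison, the neighbours within 500 kb, the 5 most similar genes and 3 checks. Genes given as not called, and the markers, were named after their values were seen. On simulated counts of 15442 genes (*KO* against *WT* under 5-FU), 99% of 100 genes changed by 1 and 100% of 100 changed by 2 on the log2 scale were called, with 3 false calls. The changed genes were drawn from those with higher expected counts, and all genes were given a dispersion of 0.01. These shares therefore do not cover genes with few counts. Alternatives were DESeq2 1.42.0, TMM and RLE factors, other filters, single libraries left out, replicate numbers as a block and summed members. Results on 1 regulator are not reported here. The test planned for the members between genotypes is not given, since its libraries led to their choice.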

Additional observations from a re-analysis of the deposited data

Results flagged for a closer look

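Given here are 9 genes of the lists and the neighbourhood whose 5-FU responses differed between the genotypes by the interaction test of edgeR. Values are the log2 fold change in *KO* cells minus that in *WT* cells. *NR1I2* was also called, lower in *KO* cells, but had 0 counts in *WT* cells treated with DMSO, and its difference is not given. Of all genes tested, 10.1% were called in this comparison (3.42% higher, 6.66% lower). The response was higher in *KO* cells for *ABCG2* (0.71, FDR = 0.0105), *VDR* (0.99, FDR = 2.90e-06), *CYP1B1* (1.06, FDR = 0.00683) and *HJURP* (0.64, FDR = 0.000266). It was lower for *SLCO1B3* (-0.74, FDR = 0.0106), *HNF4A* (-1.69, FDR = 0.0208), *SLC7A11* (-1.44, FDR = 2.42e-05), *SULT1C2* (-0.76, FDR = 0.0190) and *SULT2B1* (-1.28, FDR = 0.0187). *HNF4A* lost its call when any 1 of 4 libraries was left out (replicates 2 and 3 of *KO* cells treated with DMSO, replicate 2 of *WT* and replicate 1 of *KO* cells treated with 5-FU), with -1.25 to -1.60 on the log2 scale. *SULT1C2* lost it under DESeq2 (-0.68), without the filter on low counts (-0.73) and without replicate 3 of *KO* cells treated with 5-FU (-0.67). *SULT2B1* lost it without that replicate (-1.03) or without replicate 3 of *WT* cells treated with 5-FU (-1.08). The causes were not tested. Over all genes, 551 were called higher and 1073 lower in this comparison (33.9% higher), against 44.5% higher with TMM factors, 48.0% with RLE factors and 51.1% with DESeq2.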

How the results depend on the processing

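For *UGT1A6*, the log2 fold change between *KO* and *WT* cells treated with 5-FU, given without a test, was 3.42 to 3.48 under TMM or RLE factors, DESeq2 or no filter, 2.81 with the members summed and 3.24 to 3.66 with single libraries left out. A filter of 20 counts in every library removed it. Keeping the identical library under its label gave 4.01, 0 called genes for 5-FU in *WT* cells (6467 at an unadjusted p under 0.05) and 428 in the interaction. With FDR alone, 9712 and 9737 genes were called for 5-FU in *WT* and *KO* cells, 7472 and 7995 between genotypes under DMSO and 5-FU, and 4207 in the interaction. Single libraries left out gave 3863 to 4829, 3838 to 4075, 2088 to 2278, 2541 to 3118 and 1396 to 1972 in the same order, and shares of *UGT1A6* of 56.5 to 57.5% in *WT* and 86.1 to 90.9% in *KO* cells. By Spearman's rho, 1 of the 5 genes most like *UGT1A6* was among the top 5.

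By the replicate numbers of the labels, no pairing of the libraries was seen. None of 15 pairs with the same number had a correlation of deviations over 0.1 (-0.0914 to 0.0782). A library correlated best with its own number in 11 of 30 cases. The file headers number replicates 2 and 3 of *WT* cells treated with 5-FU as 1 and 2, and this check did not use those numbers. With a replicate block, 4397, 4024, 2249, 2773 and 1517 genes were called in the same order, and *UGT1A6* was at 3.28 (3.46 with the numbers of the file headers, an alternative chosen after seeing the data).

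Of 86 differences of single genes, 50 kept direction and call in all alternatives that gave a value, and of 1778 alternative values 77 lost the call, 34 of them with the identical library kept, while none reversed. The calls of *AKR1C2* and *SLC7A11* between genotypes under 5-FU and of *NQO1* under DMSO were lost under RLE factors and DESeq2. *SLC7A11* was at -0.24 without replicate 3 of *WT* cells treated with 5-FU. With 2 libraries of *WT* cells treated with 5-FU and 13 to 23 counts of *UGT1A6* in them, depth limits the level in these cells, and the 7 members below the filter could not be tested.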
